A study of Mus musculus with 8 samples.

Results

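The BCL2 family decides whether a cell keeps or loses the integrity of its outer mitochondrial membrane. Its pro-survival proteins (BCL2, BCL-XL and MCL1) hold the pore-forming effectors BAX and BAK in check, and the BH3-only proteins (BIM, BID, BAD, PUMA and NOXA) bind the pro-survival proteins or the effectors and tip the balance towards permeabilization, release of cytochrome c and caspase activation. In mouse bone marrow, hematopoietic stem cells depend on Mcl1 for survival, and forced expression of human BCL2 enlarges the stem cell pool. Much of the family is controlled by phosphorylation, protein turnover and binding, none of which an RNA array measures.

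The 10 genes considered were Bcl2, Bcl2l1, Mcl1, Bax, Bak1, Bcl2l11, Bid, Bad, Bbc3 and Pmaip1. For each gene, the probe set annotated to that symbol alone was read. Of the 10 genes, 9 had such a probe set, each of them 1 probe set, among 19938 genes in all, and Bax, an effector, was not analysed here.

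The cells were KSL SLAM stem cells of mouse bone marrow, sorted as lineage negative, c-Kit+, Sca-1+, CD150+, CD48- and CD41-. In the G-CSF group, mice received granulocyte colony-stimulating factor at 125 mcg/kg under the skin, 2 doses a day, for 36 h. In the PBS group, mice received saline alone over the same 36 h. Each group had 4 independent samples, each pooled from 5 to 10 mice and hybridized to 1 MoGene 1.0 ST array. The sources used here name no strain, age or genotype. Because cells were pooled and lysed, fewer cells of a type and less RNA per cell cannot be told apart.

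One array, PBS replicate 3, differed from the rest. The interquartile range of its log2 intensities was 1.68, against 2.42 to 2.80 on the other 7 arrays. Relative to the mean of the other 3 PBS arrays, its median gene lay 0.46 lower on the log2 scale among the 4985 brightest genes (median difference -0.46) and 0.52 higher among the 4984 dimmest. Mcl1, Bak1 and Bcl2 belong to the brightest group, and values without that array are also given beside many of the results. The design asks whether stem cells exposed to G-CSF carry more or less RNA of each survival and death gene than stem cells of saline-treated mice.

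No member of the family passed the threshold of an adjusted p under 0.05 (limma, Benjamini-Hochberg adjustment over all genes). The count was 0 of 9, against 0.0953% of all genes. At an unadjusted p under 0.05 the count was 1 of 9, the BH3-only gene Bcl2l11, against 9.01% of all genes (6.07% higher and 2.94% lower). The G-CSF values overlapped the 4 PBS values for every one of the 9, whereas the groups did not overlap at 6.15% of all genes (3.37% higher and 2.78% lower). Of the 9 log2 fold changes, 4 were above 0, against 41.7% of all genes, and their median was -0.04, against -0.07 for all genes. With PBS replicate 3 left out these medians were 0.02 and -0.02.

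**Figure D1:**
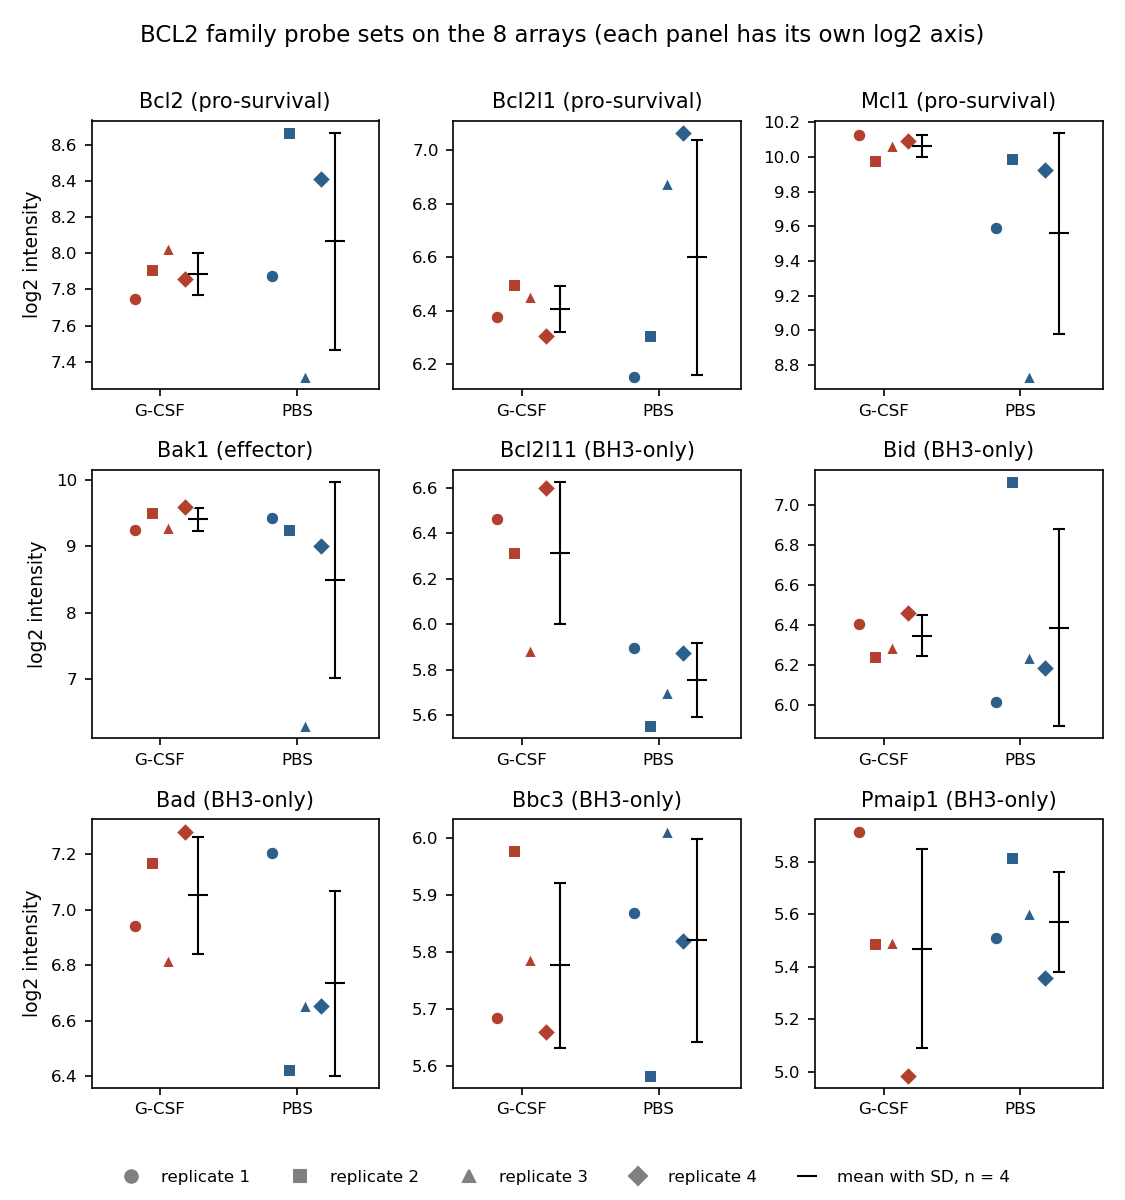
Log2 intensity (vertical axis, one scale per panel) of each BCL2 family probe set on 4 G-CSF arrays (red, left) and 4 PBS arrays (blue, right), with marker shapes for replicates 1 to 4 and the mean with its SD. The G-CSF arrays of Mcl1 lie within 9.98 to 10.13, while PBS replicate 3 is the lowest array for Mcl1, Bak1 and Bcl2.

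Among the pro-survival genes, Mcl1, whose short-lived protein binds BIM, NOXA and BAK, had the one positive estimate. Its log2 intensity (probe set 10494306) was 10.13, 9.98, 10.06 and 10.09 across G-CSF replicates 1 to 4, against 9.59, 9.99, 8.73 and 9.93 across PBS replicates 1 to 4. The G-CSF arrays were nearly level, and the groups overlapped by a single pair, since G-CSF replicate 2 lay just under PBS replicate 2. The mean was 10.06 ± 0.07 after G-CSF and 9.56 ± 0.58 after PBS (SD, n = 4 each), a log2 fold change of 0.50 ± 0.26 SE (limma adjusted p = 0.571). Leaving out PBS replicate 3 gave a log2 fold change of 0.23 ± 0.14 SE and a PBS mean of 9.84, so the estimate rested in good part on that array.

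Bcl2, the founding pro-survival gene, gave a negative estimate. Its log2 intensity (probe set 10357043) was 7.75, 7.91, 8.03 and 7.86 across G-CSF replicates 1 to 4, against 7.87, 8.67, 7.32 and 8.41 across PBS replicates 1 to 4. PBS replicates 2 and 4 lay above all G-CSF arrays, PBS replicate 3 below all of them and PBS replicate 1 among them. This gave a log2 fold change of -0.18 ± 0.27 SE (limma adjusted p = 0.772). It was -0.43 ± 0.19 SE without PBS replicate 3, with a 95% confidence interval from -0.87 to 0.00 (limma adjusted p = 0.572, against 0.471 to 0.976 over 18 alternatives). Without PBS replicate 2 it was 0.02, so single PBS arrays decided both its size and its sign.

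Bcl2l1, which encodes BCL-XL and is known for its part in the survival of erythroid cells and platelets, was read by probe set 10488655. Its log2 intensity was 6.37, 6.49, 6.45 and 6.30 across G-CSF replicates 1 to 4, against 6.15, 6.31, 6.87 and 7.07 across PBS replicates 1 to 4. The PBS arrays spread around the G-CSF arrays, with 2 above all of them and 1 below. G-CSF minus PBS gave a log2 fold change of -0.19 ± 0.22 SE (limma adjusted p = 0.717), with a 95% confidence interval from -0.67 to 0.29, and -0.10 without PBS replicate 3. It was -0.04 without PBS replicate 4, -0.34 without PBS replicate 1 and -0.37 after quantile normalization of the log2 values.

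Bak1 encodes BAK, an effector that oligomerizes in the outer mitochondrial membrane. Its log2 intensity (probe set 10449303) was 9.25, 9.51, 9.27 and 9.59 across G-CSF replicates 1 to 4, against 9.42, 9.25, 6.30 and 9.002 across PBS replicates 1 to 4. A single array, PBS replicate 3, was far below the other 7, which lay between 9.002 and 9.59. The log2 fold change of 0.91 ± 0.57 SE (limma adjusted p = 0.588) was the largest of the family in size and the least precise, with a 95% confidence interval from -0.33 to 2.16. Over the other 7 arrays it was 0.18 ± 0.16 SE, with an interval from -0.17 to 0.54. PBS replicate 3 differed from the other PBS arrays by -2.93 for Bak1, by -1.11 for Mcl1 and by -1.001 for Bcl2.

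**Figure D2:**
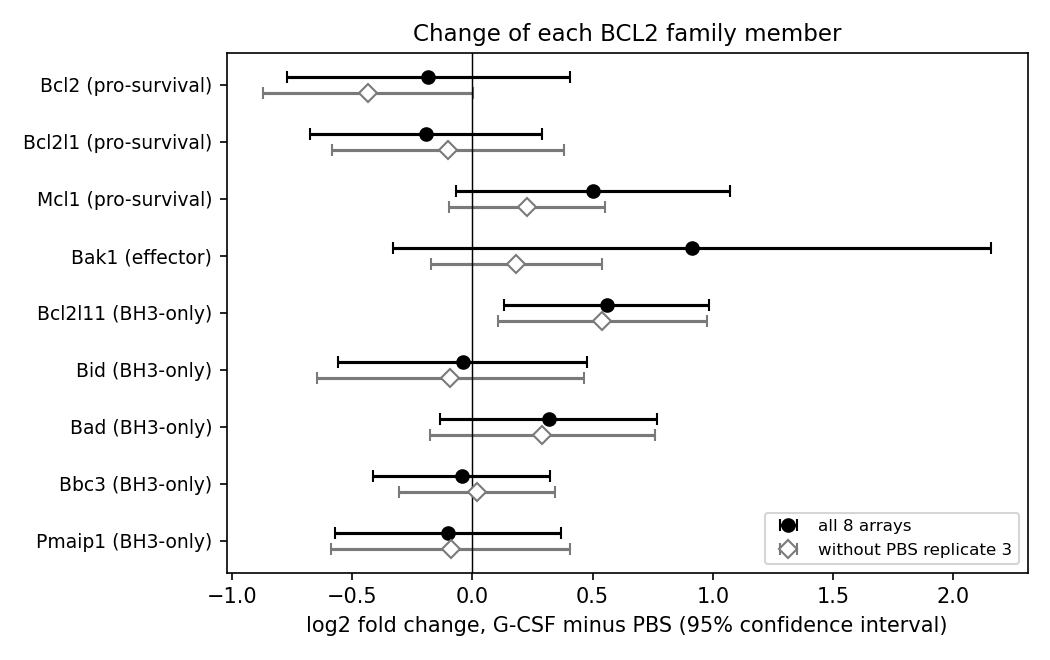
Log2 fold change of each member, G-CSF minus PBS (horizontal axis), with its 95% confidence interval from limma, for all 8 arrays (black circles) and without PBS replicate 3 (open diamonds). The interval of Bcl2l11 lies above 0 in both fits, before any adjustment over genes, and the estimate for Bak1 moves to 0.18 from 0.91 when PBS replicate 3 is left out.

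Bcl2l11 encodes BIM, the BH3-only protein that drives the death of blood cells deprived of cytokine, and it had the lowest unadjusted p of the family. Its log2 intensity (probe set 10475866) was 6.46, 6.31, 5.88 and 6.60 across G-CSF replicates 1 to 4, against 5.89, 5.55, 5.70 and 5.87 across PBS replicates 1 to 4. G-CSF replicates 1, 2 and 4 lay above every PBS array, and G-CSF replicate 3 fell between the 2 highest PBS arrays. The mean was 6.31 ± 0.31 after G-CSF and 5.75 ± 0.16 after PBS (SD, n = 4 each), a 1.47-fold difference (95% confidence interval 1.096 to 1.98). The log2 fold change was 0.56 ± 0.19 SE and did not pass over all genes (limma adjusted p = 0.452). Leaving out PBS replicate 3 gave 0.54 ± 0.19 SE. Over 18 alternatives it ranged from 0.45 to 0.70 with an adjusted p of 0.366 to 0.838, so the estimate kept its sign and did not pass in any of them. Some of these alternatives changed only the variance or the set of genes tested and could not move the estimate.

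FOXO transcription factors are known to activate Bcl2l11 when growth factor signalling is low, and Bbc3 is a further reported FOXO target. The 250 bases before each annotated start in RefSeq (GRCm38.p6) were searched for the FOXO core GTAAACA on both strands and for the STAT half-site pair TTCNNNGAA, which reads alike on both strands. The search covered 14 such windows of 8 measured members. A FOXO match stood in 2 windows, 1 of Bcl2l11 and 1 of Bbc3, and a STAT match in 0. Over all 32851 windows of this length in the table, 3.17% held the FOXO core and 7.02% the STAT pair. A match is a string of letters and not a shown binding site. The windows with a match are given 5′ to 3′, with the FOXO core in capitals, since both BH3-only genes hold the core. The Bcl2l11 window is chr2:128125788-128126037, plus strand, with the core beginning 227 bases before the start (position -227), and the Bbc3 window is chr7:16310011-16310260, plus strand, with the core on the opposite strand at position -167.
Bcl2l11: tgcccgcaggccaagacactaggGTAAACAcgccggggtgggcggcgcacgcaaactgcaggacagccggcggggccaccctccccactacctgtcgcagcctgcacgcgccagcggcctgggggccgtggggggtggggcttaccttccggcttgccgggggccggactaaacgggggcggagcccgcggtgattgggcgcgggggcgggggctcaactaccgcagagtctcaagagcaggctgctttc
Bbc3: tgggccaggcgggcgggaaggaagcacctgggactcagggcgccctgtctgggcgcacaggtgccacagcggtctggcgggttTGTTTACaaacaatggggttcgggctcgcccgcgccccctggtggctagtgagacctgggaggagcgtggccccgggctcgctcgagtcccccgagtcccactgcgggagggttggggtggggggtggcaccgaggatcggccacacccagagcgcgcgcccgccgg

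Bbc3, the gene of PUMA, a p53-induced BH3-only protein that mediates radiation death of mouse stem and progenitor cells, was read by probe set 10550290. Its log2 intensity was 5.68, 5.98, 5.79 and 5.66 across G-CSF replicates 1 to 4, against 5.87, 5.58, 6.01 and 5.82 across PBS replicates 1 to 4. The groups were interleaved, with a log2 fold change of -0.04 ± 0.17 SE (limma adjusted p = 0.913) and a 95% confidence interval in folds from 0.752 to 1.25, the narrowest of the 9 on the log2 scale. It was 0.02 with PBS replicate 3 left out.

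Pmaip1, the gene of NOXA, which binds MCL1 and promotes its degradation, was read by probe set 10456357. Its log2 intensity was 5.92, 5.49, 5.49 and 4.98 across G-CSF replicates 1 to 4, against 5.51, 5.81, 5.60 and 5.36 across PBS replicates 1 to 4. The G-CSF arrays enclosed the PBS arrays, with a range of 0.93 after G-CSF and 0.46 after PBS. Its log2 fold change was -0.10 ± 0.21 SE (limma adjusted p = 0.844).

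Bid links death receptors to mitochondria once caspase-8 has cleaved its protein. Its log2 intensity (probe set 10547531) was 6.41, 6.24, 6.29 and 6.46 across G-CSF replicates 1 to 4, against 6.02, 7.12, 6.23 and 6.18 across PBS replicates 1 to 4. PBS replicate 2 was the highest array, and the other 3 PBS arrays lay below all 4 G-CSF arrays. Its log2 fold change was -0.04 ± 0.24 SE (limma adjusted p = 0.946), -0.09 without PBS replicate 3 and 0.20 ± 0.17 SE without PBS replicate 2 (limma adjusted p = 0.597, against 0.597 to 0.997 over 18 alternatives).

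Bad, whose protein is kept inactive by survival kinases that phosphorylate it, was read by probe set 10461017. Its log2 intensity was 6.94, 7.17, 6.82 and 7.28 across G-CSF replicates 1 to 4, against 7.21, 6.42, 6.65 and 6.66 across PBS replicates 1 to 4. All 4 G-CSF arrays lay above PBS replicates 2, 3 and 4, while PBS replicate 1 was second only to G-CSF replicate 4. The log2 fold change was 0.32 ± 0.20 SE (limma adjusted p = 0.599). Over 18 alternatives it ranged from 0.12, after quantile normalization of the log2 values, to 0.47, without PBS replicate 1.

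By role, 1 of the 3 pro-survival genes had a positive estimate (Mcl1), as did the 1 effector measured and 2 of the 5 BH3-only genes (Bcl2l11 and Bad), none past the threshold. When single arrays were left out, the groups of 3 members did not overlap without PBS replicate 1 (Bak1, Bcl2l11 and Bad, all higher after G-CSF, against 11.5% of all genes). The groups of 2 members did not overlap without PBS replicate 2 (Mcl1 and Bid, both higher, against 10.8% of all genes), those of Mcl1 did not without G-CSF replicate 2 (against 8.20% of all genes), and those of Bcl2l11 did not without G-CSF replicate 3 (against 9.96%). In each case the array left out was the highest PBS or the lowest G-CSF array of the members named. Without G-CSF replicate 1 or 4 or PBS replicate 3 or 4 the count was 0, against 7.92% to 12.8% of all genes. At the p-value of the last gene called over all genes (3.54e-05), a log2 fold change of 1.11 for Bbc3, 1.29 for Bcl2l11, 1.72 for Mcl1 and 3.76 for Bak1 would have been needed at the observed spread.

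The SD among G-CSF arrays was smaller than that among PBS arrays for 7 of the 9 members, the exceptions being Bcl2l11 and Pmaip1. The count was also 7 of 9 without PBS replicate 3. Over all genes the share with the smaller SD after G-CSF was 73.6%, and 47.4% without PBS replicate 3. For Mcl1 the SD was 0.07 after G-CSF and 0.21 over the other 3 PBS arrays, and for Bid it was 0.10 after G-CSF and 0.59 over those PBS arrays. No test of the spreads was made.

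The array patterns most like those of Bcl2l11 and Mcl1, the members with the lowest unadjusted p, were sought among 9968 genes brighter than the median gene, by Pearson's r of log2 intensity over the 8 arrays. For Bcl2l11 they were Edem1, which helps dispose of misfolded glycoproteins (r = 0.957, log2 fold change 0.66), the mitochondrial ribosome gene Mrpl15 (r = 0.949, log2 fold change 0.24) and the phosphoinositide phosphatase gene Mtmr6 (r = 0.948, log2 fold change 0.92). Without PBS replicate 3 these r were 0.952, 0.942 and 0.941. For Mcl1 they were the phosphatase gene Ctdspl (r = 0.989), the mitochondrial oxoglutarate carrier gene Slc25a11 (r = 0.988) and the fatty acid elongation gene Hacd2 (r = 0.987), and without PBS replicate 3 the r were 0.913, 0.927 and 0.981. These are the highest of many correlations over few arrays and are given as a description.

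The other genes of the family were described from a list of 16, of which 13 were measured. None of the 13 passed over all genes or had an unadjusted p under 0.05 (limma), and 6 had a positive log2 fold change. Bcl2l2, the gene of the pro-survival protein BCL-W, was the 1 gene of the 13 whose groups did not overlap, against 6.15% of all genes, with 6.03, 6.08, 6.28 and 6.44 across G-CSF replicates 1 to 4, against 5.95, 5.96, 5.71 and 6.01 across PBS replicates 1 to 4. Its log2 fold change was 0.30 ± 0.17 SE (limma adjusted p = 0.578). The mitophagy receptor gene Bnip3l had 0.41 ± 0.33 SE, and 0.03 without PBS replicate 3. Bcl2l13 had -0.25 ± 0.20 SE, and Bmf, a BH3-only gene whose protein is held at the cytoskeleton, had -0.04 ± 0.25 SE, and 0.05 without that array. Of the pro-survival Bcl2a1 genes, 3 probe sets are annotated to all 4 near-identical copies at once and were not used. Bcl2a1c alone had a probe set of its own, with a log2 fold change of -0.06 ± 0.30 SE, and 0.08 without PBS replicate 3, which is uncertain because the copies can share signal.

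Downstream of the mitochondrion, 15 of 17 listed genes of the apoptosome, the caspases and their inhibitors were measured, and 0 passed over all genes (limma), with 3 higher and 0 lower at an unadjusted p under 0.05, against 6.07% and 2.94% of all genes. Birc5, the gene of survivin, which is also a mitotic protein, was at 7.59, 7.01, 8.14 and 8.39 across G-CSF replicates 1 to 4, against 7.07, 6.94, 6.56 and 6.71 across PBS replicates 1 to 4. G-CSF replicate 2 lay below PBS replicate 1, and the other G-CSF arrays lay above every PBS array. Birc5 had a log2 fold change of 0.96 ± 0.28 SE (limma adjusted p = 0.342). Apaf1, the scaffold that cytochrome c assembles into the apoptosome, had 0.56 ± 0.21 SE, and Diablo, which relieves caspases of their inhibitors, had 0.63 ± 0.27 SE. The median log2 fold change of the list was 0.30, against -0.07 for all genes and 0.19 for the 4985 brightest, and it was 0.22 without PBS replicate 3.

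Of 9 genes for mitochondrial pore proteins and proteins that tether family members, 0 passed (limma). At an unadjusted p under 0.05 the count was 0, against 9.01% of all genes. Estimates were positive for 8 of the 9, against 41.7% of all genes. All 9 were among the 4985 brightest genes, so the share over all genes is not a like background for that count. The median of the 9 was 0.40, against -0.07 for all genes and 0.19 for the 4985 brightest. Without PBS replicate 3 it was 0.18, against -0.02 for all genes and 0.07 for the brightest. Tmbim6, the Bax inhibitor gene of the endoplasmic reticulum, had 0.97 ± 0.45 SE, Dynll1, whose dynein light chain sequesters BIM, 0.79 ± 0.37 SE, and Vdac2, whose channel holds BAK, 0.41 ± 0.21 SE. Leaving that array out gave 0.58, 0.52 and 0.26. Vdac1, the gene of a further outer membrane channel, had the highest estimate of the list, 1.19, and 0.18 without that array.

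**Figure D3:**
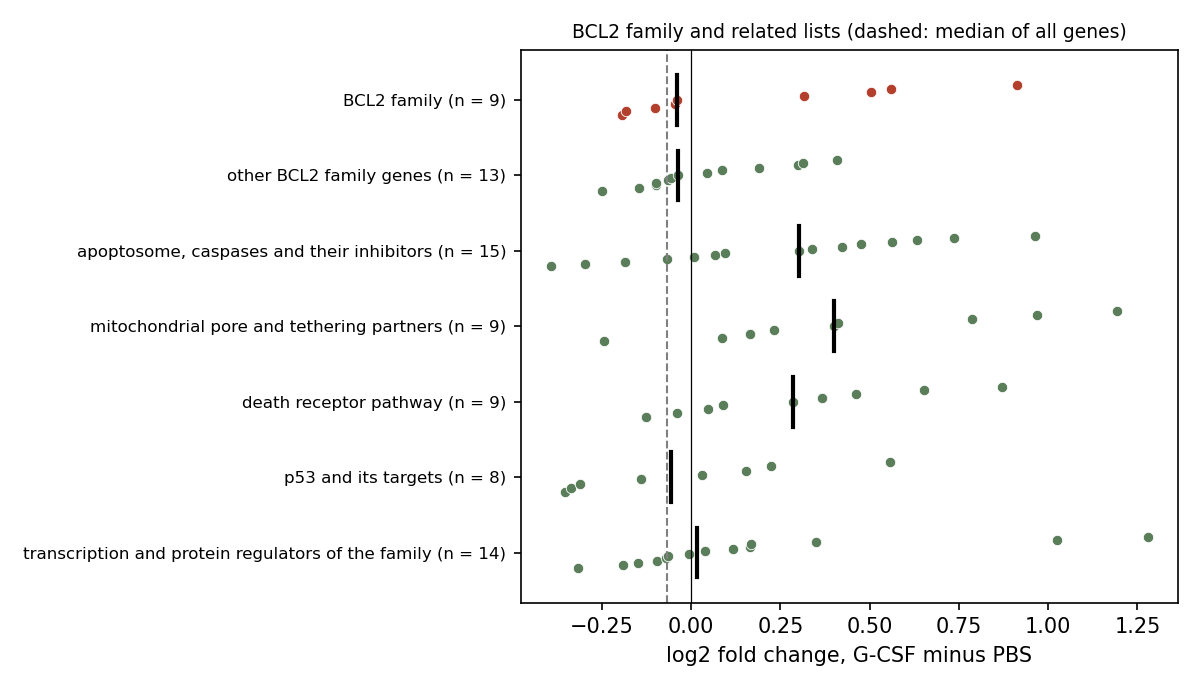
Log2 fold change, G-CSF minus PBS (horizontal axis), of each measured gene (points) in the BCL2 family and in 6 related lists, with the median of each list (black bar) and of all genes (dashed line, -0.07). No gene shown passed the threshold over all genes, and the highest points are Pim1 at 1.28 and Pim2 at 1.02 in the lowest row and Vdac1 at 1.19 among the pore proteins, which was 0.18 without PBS replicate 3.

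In the death receptor pathway, 9 of 10 listed genes were measured, and 0 passed over all genes (limma), with 2 higher and 0 lower at an unadjusted p under 0.05, against 6.07% and 2.94% of all genes. Tnfrsf1a, the gene of the main TNF receptor, was at 8.79, 9.14, 9.23 and 9.13 across G-CSF replicates 1 to 4, against 8.29, 8.89, 7.43 and 8.20 across PBS replicates 1 to 4. A single PBS array, replicate 2, reached into the G-CSF range. Its log2 fold change was 0.87 ± 0.27 SE (limma adjusted p = 0.387). Tnfsf10, the gene of the ligand TRAIL, had 0.65 ± 0.29 SE, Fadd, the adaptor that recruits caspase-8, 0.46 ± 0.34 SE, and Fas, the death receptor itself, 0.05 ± 0.29 SE. The list's median was 0.29, against -0.07 for all genes, and it was 0.09, against -0.02, without PBS replicate 3. Without that array, Tnfrsf1a had 0.61, Tnfsf10 0.52, Fadd 0.07 and Fas 0.11.

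Among p53 and its targets, 8 of 10 listed genes were measured, and Trp53 and Cdkn1a were not analysed here. None passed (limma), 0 had an unadjusted p under 0.05, and the median log2 fold change was -0.06, which was -0.11 without PBS replicate 3. Trp53inp1, a stress-induced partner of p53, had 0.56 ± 0.27 SE, and the targets Eda2r and Phlda3 had -0.34 ± 0.20 SE and -0.35 ± 0.25 SE. With that array left out, Eda2r had -0.16. Bbc3 and Pmaip1, which are p53 targets as well, had -0.04 and -0.10.

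Genes that act on the family from outside held the largest estimate of these lists, although 0 of 14 passed over all genes (limma), with 2 higher and 0 lower at an unadjusted p under 0.05, against 6.07% and 2.94% of all genes. The groups did not overlap for 3 of the 14 in the higher and 2 in the lower direction, against 3.37% and 2.78% of all genes. Pim1 encodes a survival kinase induced by JAK and STAT signalling that phosphorylates BAD. It was at 8.92, 9.02, 9.49 and 9.13 across G-CSF replicates 1 to 4, against 7.71, 8.21, 7.16 and 8.35 across PBS replicates 1 to 4, and the groups did not overlap. Pim1 had a 2.43-fold higher mean after G-CSF (log2 fold change 1.28 ± 0.26 SE, limma adjusted p = 0.152). Pim2, a kinase of the same family, was at 6.62, 7.09, 7.01 and 7.38 across G-CSF replicates 1 to 4, against 5.90, 6.13, 5.84 and 6.13 across PBS replicates 1 to 4. Its groups did not overlap either, with a log2 fold change of 1.02 ± 0.19 SE (limma adjusted p = 0.0975). Without PBS replicate 3 the log2 fold changes were 1.05 for Pim1 and 0.97 for Pim2.

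Foxo3, a FOXO factor needed to maintain stem cells and an activator of Bcl2l11, had lower values on every G-CSF array than on any PBS array. It was at 8.78, 8.79, 8.87 and 8.90 across G-CSF replicates 1 to 4, against 8.98, 9.16, 9.05 and 9.40 across PBS replicates 1 to 4. The mean was 8.83 ± 0.06 after G-CSF and 9.15 ± 0.18 after PBS (SD, n = 4 each), a log2 fold change of -0.32 ± 0.16 SE that did not pass (limma adjusted p = 0.567). Bcl2l11 itself had a positive estimate of 0.56, which did not pass either, and a link between Foxo3 and Bcl2l11 was not tested. Of the remaining regulators, 2 had groups that did not overlap and were chosen after their values were seen, namely Huwe1, the ligase gene that marks MCL1 for degradation, with -0.19 ± 0.15 SE, and Foxo1, with 0.17 ± 0.15 SE.

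**Figure D4:**
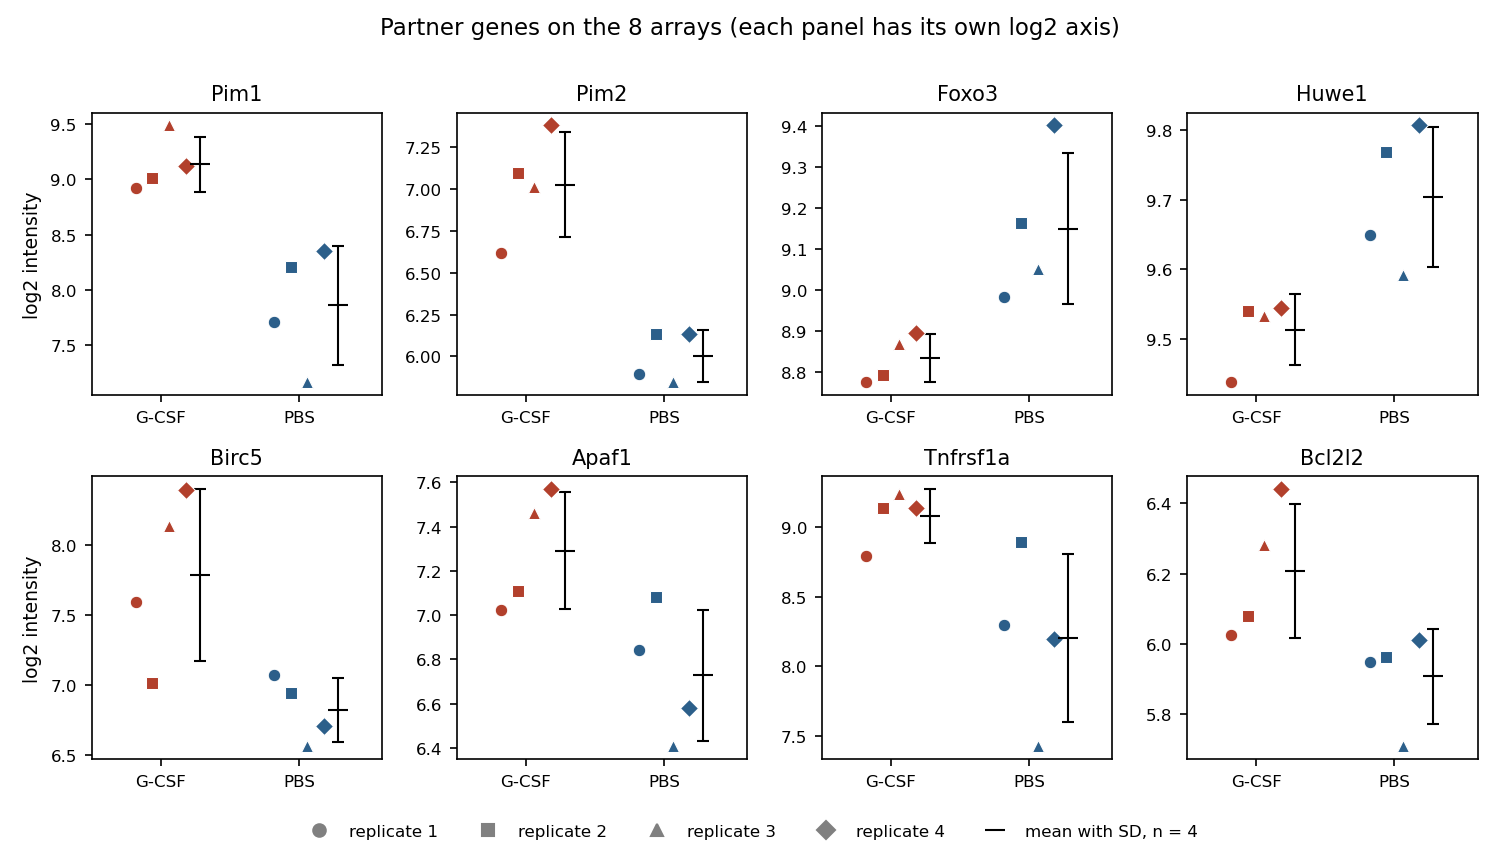
Log2 intensity (vertical axis, one scale per panel) of 8 genes related to the BCL2 family on 4 G-CSF arrays (red, left) and 4 PBS arrays (blue, right), with the mean and its SD. The groups do not overlap for Pim1, Pim2, Foxo3, Huwe1 and Bcl2l2, and they overlap for Birc5, Apaf1 and Tnfrsf1a.

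Marker genes of several cell types were compared between the groups, which by itself cannot show what the sorted cells are. Of 9 measured stem cell markers, 0 had an unadjusted p under 0.05 (limma), against 9.01% of all genes. Estimates were positive for 3 of the 9, against 41.7% of all genes. Kit, whose product is part of the gate, had -0.35 ± 0.17 SE, and -0.44 without PBS replicate 3. The mean log2 intensity of the 9 markers per array was 7.74 to 8.01 after G-CSF and 7.41 to 8.22 after PBS. The marker lists were chosen with earlier results of these data known, so their counts are given as a description. All 14 neutrophil markers had an unadjusted p under 0.05 and were higher after G-CSF (0 past the adjusted threshold, limma). The share of all genes higher at that p was 6.07%. The 14 markers had a median log2 fold change of 1.93. Their mean was 10.92, 10.89, 8.76 and 9.35 across G-CSF replicates 1 to 4, against 8.49, 7.39, 7.83 and 7.79 across PBS replicates 1 to 4. Of the defining neutrophil markers none was near the bottom of the scale on the G-CSF arrays, the lowest being Stfa2 at 5.89 in replicate 3, although lineage-positive cells were to be sorted out. Some were bright on the PBS arrays too, such as S100a8 at 10.83 to 12.91 and Lcn2 at 8.28 to 10.57, while Stfa2 was at 3.32 to 3.70. On the same G-CSF replicates 1 to 4, Bcl2l11 was at 6.46, 6.31, 5.88 and 6.60. Mcl1 was at 10.13, 9.98, 10.06 and 10.09 on them. The part of neutrophil RNA in the values of the family was not tested. Of 7 monocyte and macrophage markers, 5 were higher at an unadjusted p under 0.05 (limma), against 6.07% of all genes. Their means were 7.23 to 7.83 after G-CSF and 6.50 to 7.497 after PBS. The 4 megakaryocyte markers averaged 6.38 to 7.34 after G-CSF and 6.87 to 8.25 after PBS. Of these, 1 was lower at an unadjusted p under 0.05 (limma), against 2.94% of all genes. The B cell, T cell and erythroid lists (4, 5 and 4 measured genes) had medians of -0.21, -0.25 and -0.24. They held 0 genes at an unadjusted p under 0.05 (limma), against 9.01% of all genes. Without PBS replicate 3 the medians were -0.13, -0.07 and -0.32. Cd48 and Itga2b, whose products were gated out, had 0.64 ± 0.36 SE and 0.10 ± 0.21 SE. Without that array Cd48 had 0.77 and Itga2b -0.01.

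**Figure D5:**
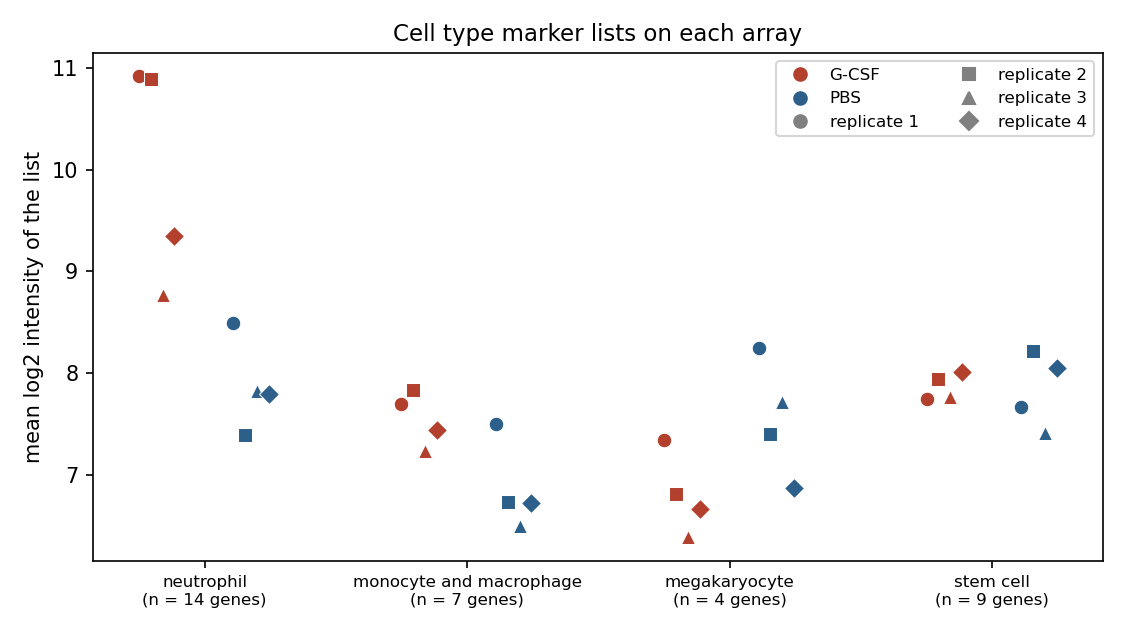
Mean log2 intensity (vertical axis) of 4 marker lists on each array, G-CSF in red to the left of PBS in blue, with marker shapes for replicates 1 to 4. The neutrophil means of all G-CSF arrays, 8.76 to 10.92, lie above those of all PBS arrays, 7.39 to 8.49, while the stem cell means overlap.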

How the data were processed

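RNA of sorted cells went over RNA XS columns and through NuGen Ovation amplification with a biotin label, per the labels' protocols. The authors deposited 1 linear intensity per probe set and array (2.15 to 16163 over 35556 probe sets), and RMA is named in the submitters' processing notes, with no software, version or option given in the sources used here. Log2 was taken before any test. The interquartile range of the log2 values ran from 1.68 to 2.80 over the arrays, so the arrays did not share 1 distribution. Quantile normalization was therefore among the alternatives. Probe sets with 1 gene symbol in the platform annotation (21789) were kept, and of several for a gene the one with the highest mean, which left 19938 genes. The G-CSF minus PBS difference was tested 2-sided by lmFit and eBayes (limma 3.58.1, R 4.3.3), adjusted by Benjamini-Hochberg over all genes, with no filter on dim genes. The test was checked on simulated arrays. No scan date was available to test as a batch, and the number of arrays limits the precision. The members, the gene lists and the motifs were chosen with earlier results of these data known. The text names all members, the always-named genes and, from each list, the 3 genes with the lowest p. Alternatives changed the variance moderation, replicate block, array weights, dim filter, normalization, offset, probe set choice, threshold and the arrays included.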

Additional observations from a re-analysis of the deposited data

Results flagged for a closer look

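In the family, 18 sets of 4 values (9 genes in 2 groups) were checked for an array far from its group, and chance flags about 1 in 20 such sets. In 1 of them, Bak1 in the PBS group, PBS replicate 3 lay at a log2 intensity of 6.30 and the other PBS arrays at 9.002 to 9.42. The gap to the nearest array was 0.865 of the group's whole range, above the 95% limit of 0.829. With and without that array the log2 fold change of Bak1 was 0.91 ± 0.57 SE and 0.18 ± 0.16 SE.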

How the results depend on the processing

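No member passed an adjusted p under 0.05 (limma) in any alternative, and the count stayed 0 at an adjusted p under 0.1 and was 1 (Bcl2l11) at an unadjusted p under 0.05. The direction held in every alternative for 5 members (Bcl2l1, Mcl1, Bak1, Bcl2l11 and Bad). It turned once for each of the other 4 when 1 array was left out. The changes of variance moderation, replicate block, dim filter and probe set choice returned the main estimate of every member they tested. No direction could turn under them. With single arrays left out and nothing else changed, the log2 fold change ran from -0.25 to 0.061 for Pmaip1 (positive without G-CSF replicate 4), from -0.43 to 0.017 for Bcl2 and from -0.16 to 0.20 for Bid (positive without PBS replicate 2), and from -0.12 to 0.019 for Bbc3 (positive without PBS replicate 3). Bcl2 was at -0.51 when PBS replicate 3 was left out and the remaining arrays were quantile normalized. In that setting Mcl1 was at 0.12, Bak1 at 0.09, Bad at 0.19 and Bcl2l11 at 0.49. The cause was not tested. Leaving out 1 array at a time gave 0 to 3 members whose groups did not overlap and 3 to 31 genes past the threshold in the whole table, where all arrays gave 19. That count was 40 with array weights, 7 after quantile normalization of all arrays and 0 when all probe sets were tested. The dim filter dropped Bbc3 and Pmaip1. With the replicate number as a block, 23 genes and 0 members passed. Deviations of same-numbered arrays from their group means correlated at -0.03 to 0.14, and G-CSF replicate 3 alone correlated best with its own number. With 4 arrays per group, this cannot show whether same-numbered samples were collected or processed together.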

Other observations

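Bnip3, a BH3-like gene of mitophagy that responds to low oxygen, varied more within each group than between them. Its log2 intensity was 7.03, 5.80, 6.75 and 7.75 across G-CSF replicates 1 to 4, against 6.05, 5.84, 6.68 and 7.51 across PBS replicates 1 to 4, with a log2 fold change of 0.31 ± 0.43 SE (limma adjusted p = 0.76). Replicate 2 was the lowest and replicate 4 the highest array in both groups. Its relative Bnip3l did not share that order, with 10.31, 10.56, 10.06 and 10.32 across G-CSF replicates 1 to 4, against 10.31, 10.36, 8.75 and 10.19 across PBS replicates 1 to 4. Bnip3 was singled out after its values were seen.

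Cycs, the gene of cytochrome c, which the family's effectors release, was at 8.48, 8.72, 7.91 and 8.67 across G-CSF replicates 1 to 4, against 8.80, 8.06, 8.86 and 7.68 across PBS replicates 1 to 4, and the groups overlapped with a log2 fold change of 0.10 ± 0.29 SE, and 0.27 without PBS replicate 3. Cflar, the inhibitor of caspase-8 at death receptors, had -0.04 ± 0.19 SE. Both were chosen after their values were seen.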
